A study of Homo sapiens with 12 samples.

Results

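The D cyclins and their kinase partners are encoded by 5 genes, CCND1, CCND2, CCND3, CDK4 and CDK6, which were taken by gene name from the deposited expression table of 58174 genes. All 5 were found. D cyclins are the regulatory subunits that cells make in response to growth factors, and CDK4 and CDK6 are the catalytic subunits they switch on. The kinase then phosphorylates the retinoblastoma protein and its relatives, which releases E2F factors and lets the cell enter S phase. In squamous lung tumours this step is often altered, by gain of the CCND1 locus or by loss of INK4 inhibitors. Palbociclib blocks the catalytic site of CDK4 and CDK6, and BLU9931 is an irreversible inhibitor of FGFR4, a growth factor receptor that signals through the ERK pathway.

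Poly(A) RNA was sequenced from H520, an established human line of lung squamous carcinoma, in 4 groups of 3 libraries. The drug groups received BLU9931 at 1 µM, palbociclib at 1 µM, or BLU9931 and palbociclib at 1 µM each (the combination), all for 72 h. The fourth group was labelled control, and the labels do not say what those cells received. Whether replicate libraries are independent cultures is not stated, and the p-values below therefore measure only the spread between these libraries, which may be technical.

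Libraries held 21.7 to 35.8 M counts (M, mega). Of the squamous markers TP63, SOX2, KRT5, KRT14, KRT6A, DSG3 and PKP1, only SOX2 was abundant, at 342 to 443 TPM, while TP63 stayed at or under 0.165 TPM. The other 5 squamous markers reached at most 1.31 TPM. Leukocyte markers summed to at most 1.56 TPM in any library, with PTPRC at 0 in 11 of 12, and fibroblast markers to at most 5.47 TPM. The 5 neuroendocrine markers summed to 33.2 to 41.3 TPM in the combination, 20.1 to 28.5 TPM with palbociclib and 25.1 to 28.5 TPM with BLU9931, against 16.9 to 20.8 TPM in control, with NEUROD1 at 0 in 11 of 12 libraries. The 4 lung glandular markers summed to 3.03 to 11.5 TPM in any library, and what part these markers had in the results below was not tested. The libraries control 1 and palbociclib 3 stood apart from the rest on the second principal component, at 67.4 and 71.6 against -32.6 to 5.38 elsewhere. In these 2 libraries the deviation of genes from their group fell with GC content (Spearman rho -0.667 and -0.735, across genes), against -0.245 to 0.600 in the other 10. The values of the D cyclin and kinase genes without these 2 libraries are given beside each comparison that uses them, and those of the other genes are counted where the genes are described.

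Positions are on GRCh38. CCND1 (ENSG00000110092) lies on the plus strand at chr11:69641087-69654474, CCND2 (ENSG00000118971) on the plus strand at chr12:4273772-4305350, and CCND3 (ENSG00000112576) on the minus strand at chr6:41934933-42050357. CDK4 (ENSG00000135446) occupies chr12:57747727-57756013 and CDK6 (ENSG00000105810) chr7:92604921-92836594, both on the minus strand. The use of strand in counting is not stated, so reads where CCND1 overlaps LTO1 (1399 bases), or CDK4 overlaps TSPAN31 (2485 bases) and MARCH9 (916 bases), all on the opposite strand, cannot be told apart. These neighbours were far lower than CCND1, at 16.2 to 30.2 CPM (counts scaled to a fixed library size with edgeR's TMM factors) for LTO1, but nearer to CDK4, at 16.6 to 25.2 CPM for TSPAN31 and 17.7 to 34.8 CPM for MARCH9.

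The 2 kinase promoters are shown because CDK4 and CDK6 encode the targets of palbociclib and their upstream sequences differ. RefSeq promoter entries (GRCh38.p14) matched 3 of the 5 genes, CCND3, CDK4 and CDK6. The 250 bases upstream of the CDK4 start (chr12:57752311-57752560) and of the first listed CDK6 start (chr7:92836574-92836823) are printed on the minus strand, 5′ to 3′, with the E box CACGTG in capitals.
CDK4: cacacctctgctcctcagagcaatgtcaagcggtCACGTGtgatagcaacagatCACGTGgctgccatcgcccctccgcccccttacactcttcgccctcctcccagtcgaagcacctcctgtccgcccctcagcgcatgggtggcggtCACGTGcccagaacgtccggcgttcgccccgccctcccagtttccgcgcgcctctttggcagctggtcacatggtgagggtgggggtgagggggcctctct
CDK6: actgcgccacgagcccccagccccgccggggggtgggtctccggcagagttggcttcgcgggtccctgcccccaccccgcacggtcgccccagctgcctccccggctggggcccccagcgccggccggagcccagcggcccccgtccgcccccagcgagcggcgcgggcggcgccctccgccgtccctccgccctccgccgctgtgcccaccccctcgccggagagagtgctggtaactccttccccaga
The CDK4 window held the E box, the letters bound by MYC with MAX, 3 times, starting at -216, -196 and -101 from the start, and the CDK6 window held it 0 times. Among 35116 RefSeq promoter windows of the same length, 6.34% held the E box at least once and 0.0797% held it 3 times or more. Neither window held the E2F letters searched (TTTCCCGC, TTTGGCGC, TTTCGCGC or TTTGCCGC, present in 2.79% of windows) or the AP-1 letters TGACTCA and TGAGTCA (4.2%). Each held the GC box GGGCGG 3 times, a count of 3 or more that 13.9% of windows reached. All motifs were searched on both strands, and a match is a description of the sequence.

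Levels were compared between genes on the deposited TPM scale, which corrects for length. CCND1 was the most abundant of the 5 in every library, with a median of 178 TPM and a range of 116 to 262 TPM. CDK4 followed at 60.7 to 151 TPM and CDK6 at 41.4 to 86.4 TPM. CCND3 was lower, at 13.3 to 30.8 TPM, and CCND2 was close to undetected, at 0 to 0.130 TPM. The order CCND1, CDK4, CDK6, CCND3, CCND2 held in 11 of 12 libraries. In the remaining one, palbociclib 3, CDK6 at 86.4 TPM was above CDK4 at 73.7 TPM. The length implied by the count over the FPKM value differed 1.44-fold between libraries for CDK4 and 1.08-fold for CDK6, so the TPM of CDK4 also moved with that length. Among 19762 protein-coding genes, CCND1 ranked between 371 and 1165 and CCND3 between 4916 and 7773.

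**Figure D1:**
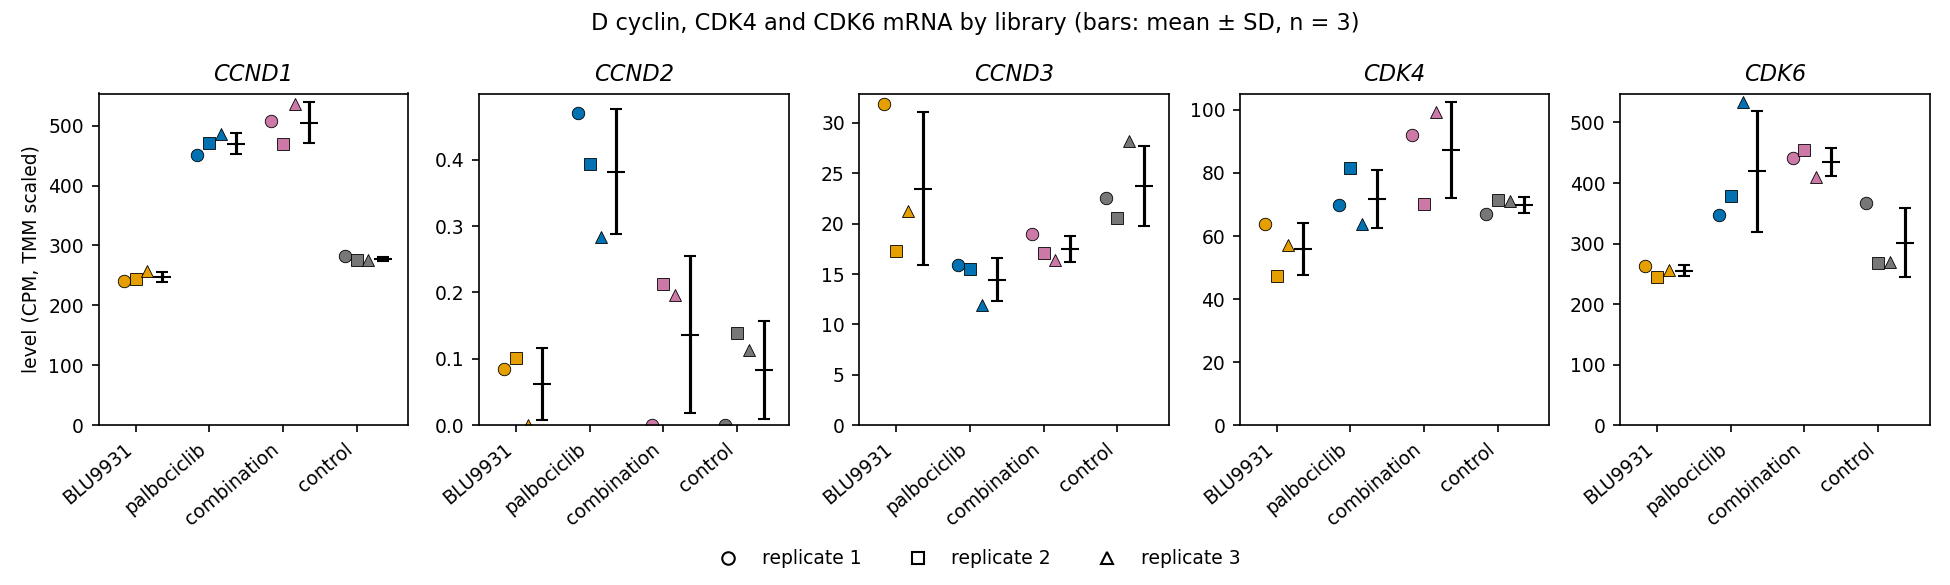
Level of each gene in each library, in CPM scaled by TMM, with the mean and SD of 3 libraries beside each group; symbols mark the replicate number and each panel has its own axis from 0. CCND1 is at 452 to 537 CPM in the 6 libraries that received palbociclib and at 241 to 282 CPM in the 6 that did not.

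CCND1, cyclin D1, was higher in every library that received palbociclib than in any that did not. Its level was 452, 471 and 487 CPM in the palbociclib libraries and 508, 469 and 537 CPM in the combination libraries. In the BLU9931 libraries it was 241, 244 and 258 CPM, and in the control libraries 282, 276 and 276 CPM. The palbociclib and combination libraries overlapped each other, and the BLU9931 libraries all lay below the control libraries. In TPM the BLU9931 and control libraries just overlapped for CCND1, with BLU9931 3 at 125.7 and control 1 at 125.4.

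CCND1 rose 1.69-fold with palbociclib (95% interval 1.504 to 1.897), a log2 difference of 0.76 ± 0.08 (SE; edgeR quasi-likelihood test, Benjamini-Hochberg adjusted p = 6.8e-05, n = 3 against 3). With the combination it rose 1.81-fold over control (log2 0.86 ± 0.08, edgeR adjusted p = 8.53e-06). Combination libraries were also 2.04-fold above BLU9931 libraries (log2 1.03 ± 0.08, edgeR adjusted p = 2.89e-06). None of these 3 calls changed under any of the 23 processing alternatives. The CCND1 difference from control, without control 1 and palbociclib 3, was log2 0.72 with palbociclib and 0.85 with the combination, and both passed (edgeR adjusted p = 6.02e-05 and 4.24e-06). Across all genes tested, 20.6% passed the threshold (adjusted p under 0.05) with palbociclib against control, 31.7% with the combination against control and 27% with the combination against BLU9931. LTO1, which overlaps CCND1, rose by log2 0.64 in the combination over control (edgeR adjusted p = 0.0117) and by 0.70 over palbociclib (0.0381). Its differences of -0.06 for palbociclib against control and 0.35 for the combination against BLU9931 did not pass (edgeR adjusted p = 0.836 and 0.136).

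The BLU9931 libraries gave a log2 difference of -0.17 ± 0.08 from control for CCND1, which did not pass after adjustment (edgeR adjusted p = 0.304; interval -0.34 to -0.00 on the log2 scale). Adding BLU9931 to palbociclib gave a log2 difference of 0.10 (interval -0.06 to 0.27; edgeR adjusted p = 0.595). These CCND1 differences, without control 1 and palbociclib 3, were -0.16 and 0.13 (edgeR adjusted p = 0.229 and 0.266). Whether the effect of the combination departed from the sum of the single log2 effects was tested as an interaction. CCND1 had 0.27 ± 0.11 there (edgeR adjusted p = 0.275), and 0.28 without control 1 and palbociclib 3 (0.0815).

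CCND3, cyclin D3, was the D cyclin that was lower with palbociclib. Palbociclib libraries had 15.9, 15.5 and 11.96 CPM and combination libraries 18.9, 17.1 and 16.4 CPM. BLU9931 libraries spread from 17.2 through 21.3 to 31.9 CPM, and control libraries had 22.6, 20.5 and 28.2 CPM. Every palbociclib library lay below every combination library, and these lay below every control library, whereas the BLU9931 range covered that of the control libraries.

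CCND3 fell 1.64-fold with palbociclib (log2 -0.72 ± 0.22, edgeR adjusted p = 0.0380), and this call stood near the threshold. It was lost in 14 of 23 alternatives, 8 of them with 1 library left out, and every alternative kept its direction, with log2 values between -0.82 and -0.58. Among single libraries left out, the largest edgeR adjusted p was 0.128, without control 3, the control library with the most CCND3. The call was also lost without control 1 (0.0589), palbociclib 1 (0.0627), palbociclib 2 (0.0717), palbociclib 3 (0.0763), BLU9931 3 (0.0580), combination 1 (0.0536) or combination 2 (0.0554), as edgeR adjusted p. Without both control 1 and palbociclib 3 the CCND3 difference was log2 -0.65 with an edgeR adjusted p of 0.0923. In these bulk samples fewer cells with an mRNA and less of it per cell cannot be told apart.

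The combination gave a CCND3 log2 difference of -0.44 from control (interval -0.92 to 0.03; edgeR adjusted p = 0.144) and of 0.27 from palbociclib (interval -0.21 to 0.75; edgeR adjusted p = 0.632). With a GC term the difference from control passed, at log2 -0.62 (edgeR adjusted p = 0.0246). BLU9931 alone gave -0.02 (interval -0.49 to 0.46; edgeR adjusted p = 0.971). These CCND3 differences without control 1 and palbociclib 3 were -0.50 for the combination against control, 0.15 for the combination against palbociclib and -0.05 for BLU9931 against control (edgeR adjusted p = 0.122, 0.760 and 0.934).

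CCND2, cyclin D2, was barely transcribed in any group. The palbociclib libraries held 14, 10 and 7 counts and the combination libraries 0, 6 and 6. The BLU9931 libraries held 2, 3 and 0 counts and the control libraries 0, 4 and 4. All palbociclib libraries were above all libraries of the other groups, and the gene did not pass the filter on low counts, so it took no part in the tests above. In an edgeR fit without that filter its palbociclib difference did not pass (adjusted p = 0.203). A library at 0 allows up to 3 counts, or between 0.105 and 0.138 CPM here.

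Expressed as TPM, the D cyclins together reached 250 ± 13.8 in palbociclib and 262 ± 16.9 in combination libraries, against 144 ± 6.04 in BLU9931 and 156 ± 9.07 in control libraries (SD, n = 3 each). CCND1 made up 93.6% of that sum with palbociclib and 92.5% with the combination, against 83.7% with BLU9931 and 84.1% in control. The ratio of CCND1 to CCND3 TPM was 14.8 ± 1.60 with palbociclib and 12.6 ± 1.84 with the combination. It was 5.36 ± 1.47 with BLU9931 and 5.41 ± 0.94 in control. These sums and ratios are descriptions, since the genes in them were tested above.

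**Figure D2:**
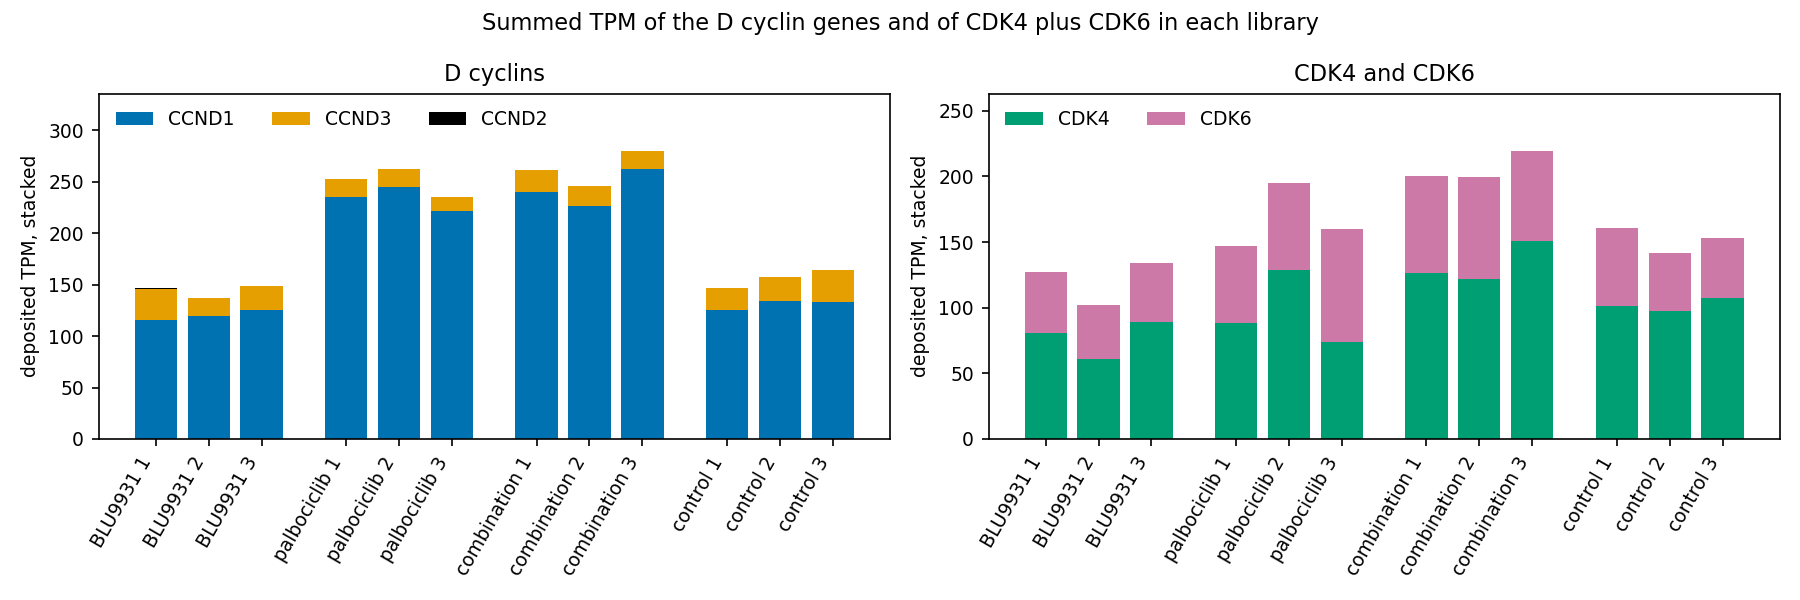
Deposited TPM of the D cyclin genes (left, stacked) and of CDK4 and CDK6 (right, stacked) in each of the 12 libraries, with both axes from 0. The D cyclin stack is 235 to 280 TPM in the 6 libraries with palbociclib and 137 to 164 TPM in the other 6, with CCND1 as its largest share throughout.

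CDK6, one of the 2 kinases, was higher in the combination than in either BLU9931 or control libraries. Its level was 441, 455 and 410 CPM in the combination, 347, 378 and 533 CPM with palbociclib, and 263, 245 and 257 CPM with BLU9931. Control libraries had 367, 269 and 269 CPM. Every combination library lay above every control library, while control 1 overlapped the palbociclib range and every BLU9931 library lay below the controls. In TPM the BLU9931 and control libraries overlapped for CDK6, with BLU9931 1 at 46.0 and control 2 and control 3 at 44.0 and 45.7.

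The 2 libraries with the GC-linked deviation, control 1 and palbociclib 3, were the highest of their groups for CDK6, whose longest transcript has 39.5% GC, the lowest of the 5 genes. With all libraries CDK6 rose 1.44-fold in the combination over control (log2 0.53 ± 0.16, edgeR adjusted p = 0.0267) and 1.71-fold over BLU9931 (log2 0.77 ± 0.16, edgeR adjusted p = 0.00448). The palbociclib difference, log2 0.48 ± 0.16, did not pass (edgeR adjusted p = 0.0577). Without control 1 and palbociclib 3 that palbociclib difference was log2 0.41 and passed (edgeR adjusted p = 0.00133), as it did with a GC term (log2 0.56, adjusted p = 9.74e-06). The combination difference of CDK6 from control was log2 0.68 without those 2 libraries (edgeR adjusted p = 1.53e-05).

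The CDK6 palbociclib difference passed in 7 of the 23 alternatives, among them DESeq2 (adjusted p = 0.0473), leaving out control 1 (edgeR adjusted p = 0.0171) and leaving out palbociclib 1 (0.0308). Leaving out palbociclib 3, the library with the most CDK6, gave the smallest CDK6 palbociclib difference of the 23, log2 0.26 (edgeR adjusted p = 0.147), and the largest adjusted p, 0.192, came with the 2 groups fitted alone. The rise of CDK6 with the combination over control lost its call without control 2 (edgeR adjusted p = 0.0838), control 3 (0.0809), combination 1 (0.0590), combination 2 (0.0683) or combination 3 (0.0565). The rise over BLU9931 kept its call in all 23 alternatives. BLU9931 alone gave a CDK6 log2 difference of -0.24 (interval -0.59 to 0.11; edgeR adjusted p = 0.455). That difference was -0.08 without control 1 (edgeR adjusted p = 0.915), -0.07 without control 1 and palbociclib 3 (0.580) and -0.01 with a GC term (0.930). Adding BLU9931 to palbociclib gave 0.05 (interval -0.30 to 0.41; edgeR adjusted p = 0.931), and without control 1 and palbociclib 3 it gave 0.26 and passed (edgeR adjusted p = 0.0271).

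CDK4, the other kinase, passed the threshold in 1 comparison, the combination against BLU9931. It was at 92.0, 70.1 and 99.4 CPM in the combination, 69.9, 81.6 and 63.8 CPM with palbociclib, and 63.7, 47.2 and 57.1 CPM with BLU9931. Control libraries had 66.9, 71.6 and 71.0 CPM. The BLU9931 libraries all lay below the controls, and the combination and palbociclib ranges each overlapped that of the controls.

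Palbociclib gave a CDK4 log2 difference of 0.04 from control (interval -0.30 to 0.38; edgeR adjusted p = 0.894), and on the TPM scale the sign turned, to -0.11 with limma. CDK4 rose 1.56-fold in the combination over BLU9931 (log2 0.64 ± 0.16, edgeR adjusted p = 0.0101). This call was lost without BLU9931 2, the library with the least CDK4 (edgeR adjusted p = 0.0642), without combination 1 (0.0506) or without combination 3 (0.0586). The combination against control gave 0.32 (interval -0.02 to 0.66; edgeR adjusted p = 0.140), and BLU9931 alone gave -0.32 (interval -0.66 to 0.02; edgeR adjusted p = 0.333). The combination against palbociclib gave 0.28 (interval -0.06 to 0.62; edgeR adjusted p = 0.438). Without control 1 and palbociclib 3 the CDK4 differences from control were 0.07 with palbociclib, 0.27 with the combination and -0.35 with BLU9931, and that of the combination from palbociclib was 0.20 (edgeR adjusted p = 0.809, 0.222, 0.285 and 0.504). The interaction for CDK4 was 0.60 ± 0.22 (edgeR adjusted p = 0.237) and passed in 1 of 22 alternatives, a GC term (adjusted p = 0.0471). Without control 1 and palbociclib 3 that interaction was 0.55 (edgeR adjusted p = 0.170). TSPAN31, which overlaps CDK4, rose by log2 0.43 in the combination over control (edgeR adjusted p = 0.0156) and by 0.41 over BLU9931 (0.0238).

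MYC, a factor that binds the E box, was looked at after its values were seen. It varied widely within groups, at 50.6, 39.7 and 19.0 CPM in the combination, 22.3, 26.7 and 3.23 CPM with palbociclib, 24.2, 4.21 and 43.6 CPM with BLU9931, and 2.83, 35.2 and 32.4 CPM in control libraries. In CPM, the lowest MYC library was also the lowest CDK4 library in the BLU9931, palbociclib and control groups, and was not in the combination group. For control and palbociclib these were control 1 and palbociclib 3, the 2 libraries with the GC-linked deviation. The control libraries lay close together for CDK4, at 66.9, 71.6 and 71.0 CPM. In TPM the lowest of them for CDK4 was control 2, at 97.5 against 101 in control 1. What part MYC had in the CDK4 levels was not tested.

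**Figure D3:**
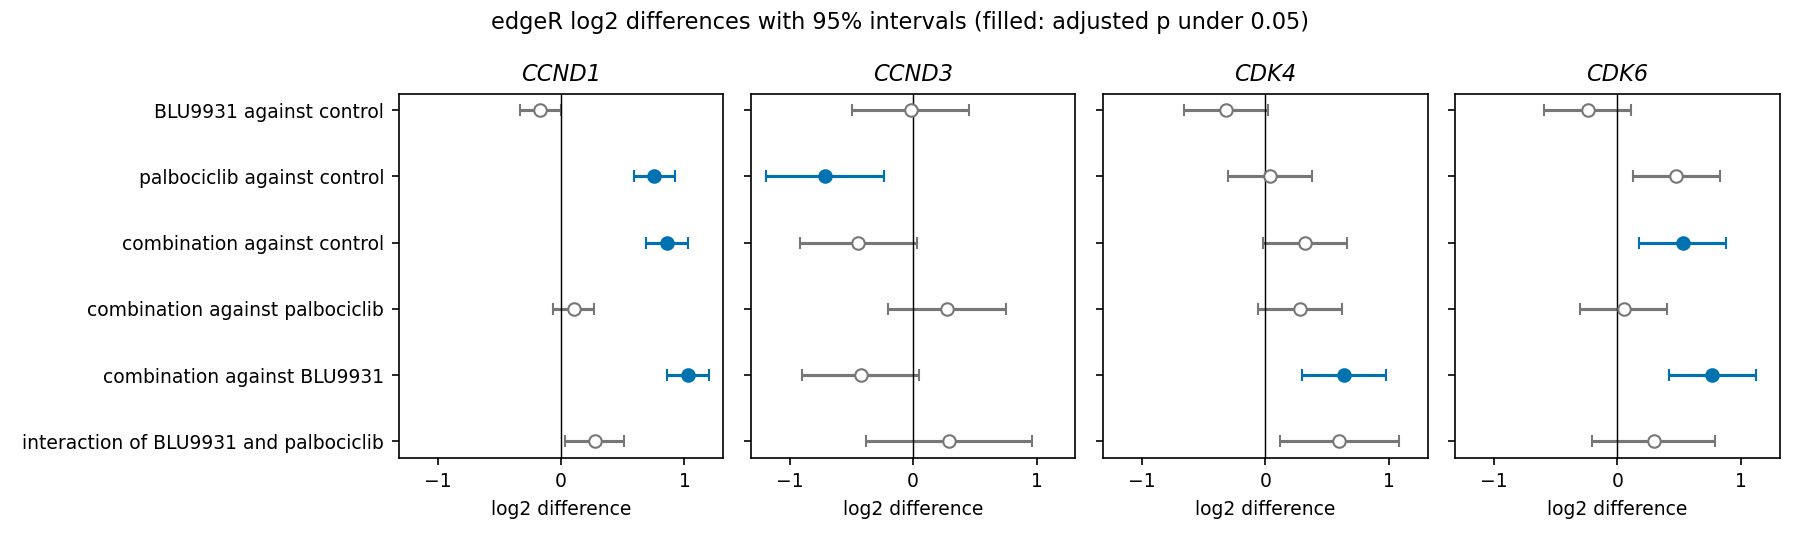
Log2 difference of each tested gene (edgeR, point) with its 95% interval (bar) in the 5 comparisons and the interaction; filled blue points have an adjusted p under 0.05. CCND1 lies at 0.76 to 1.03 in the 3 comparisons of a palbociclib-treated group with one that had none, and CCND3 is the single filled point below 0.

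Counted over the 4 tested genes, 1 rose and 1 fell with palbociclib, 2 rose with the combination over control, and 3 rose with the combination over BLU9931. Over all genes tested, 10% rose and 10.5% fell with palbociclib, 15.4% rose and 16.3% fell with the combination over control, and 13.3% rose and 13.7% fell with the combination over BLU9931. With 4 genes, no share of the members is read against these backgrounds. BLU9931 against control called 0 of the 4 in edgeR, DESeq2 and limma, where 0.18% of all genes passed in edgeR (0.141% rose and 0.0388% fell). DESeq2 called 590 and limma 22 to 51 of the 20612 genes in that comparison. At an unadjusted edgeR p under 0.05 were 1 of the 4 and 3347 of all 20612 genes tested. The combination against palbociclib also called 0 in each tool, where 3.82% of all genes passed in edgeR (0.917% rose and 2.91% fell), 1328 genes in DESeq2 and 618 to 655 in limma. Here 0 of the 4 and 3200 of all genes had an unadjusted edgeR p under 0.05. The interaction called 0 in each tool, where 1.59% of all genes passed in edgeR (0.281% rose and 1.31% fell), 853 genes in DESeq2 and 223 to 255 in limma. There 2 of the 4 and 2937 of all genes had an unadjusted edgeR p under 0.05. Comparisons with the same control or combination libraries share those libraries.

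**Figure D4:**
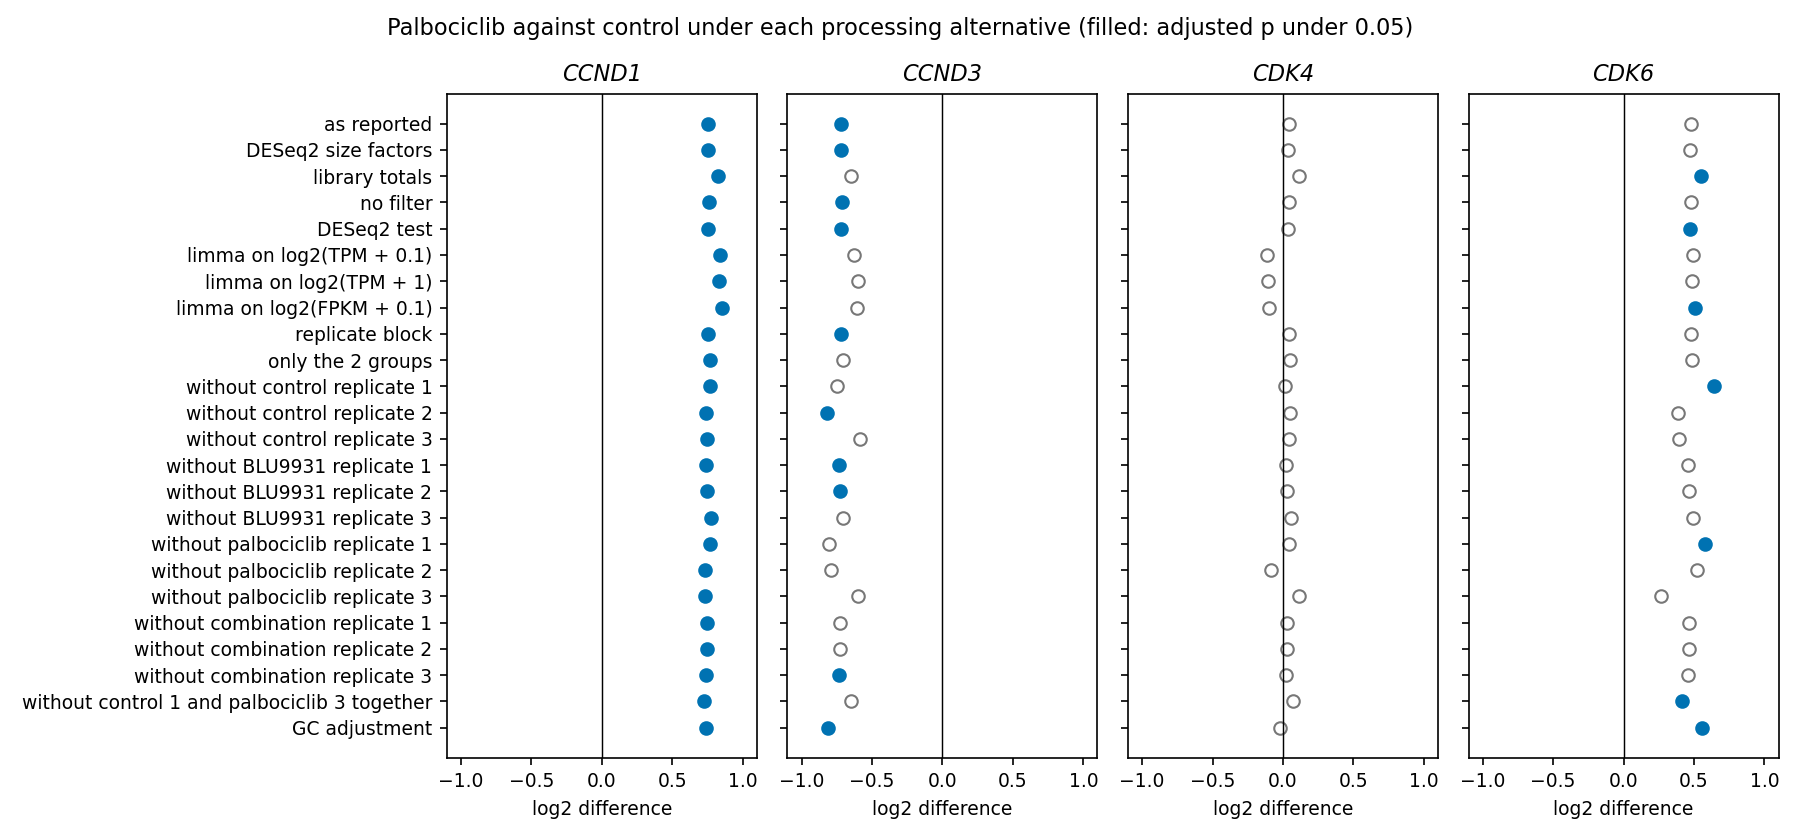
Log2 difference between palbociclib and control for the 4 tested genes under the reported processing and each of 23 alternatives; filled points have an adjusted p under 0.05. CCND1 is filled in every row, CCND3 loses its call in 14 alternatives, CDK6 gains one in 7, and CDK4 stays near 0 on either side.

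The combined TPM of CDK4 and CDK6 was 206 ± 11.2 in the combination and 167 ± 24.9 with palbociclib, against 121 ± 16.8 with BLU9931 and 152 ± 9.80 in control (SD, n = 3 each). CDK6 made up 35.6% of it in the combination, 42.6% with palbociclib, 36.7% with BLU9931 and 32.7% in control. D cyclin TPM over CDK4 plus CDK6 TPM was 1.27 ± 0.04 in the combination and 1.51 ± 0.19 with palbociclib, against 1.201 ± 0.125 with BLU9931 and 1.03 ± 0.11 in control.

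Of 64 tested genes in the 9 lists around the D cyclin kinases, 27 passed with palbociclib against control, 35 with the combination against control and 14 with the combination against palbociclib. Without control 1 and palbociclib 3, all 27, 34 of 35 (not STAT5A) and all 14 passed again with the same sign, and 7, 6 and 10 further genes passed. Calls over all genes also grew in that fit. They were 6027, 8189 and 2043 of 21092 genes, against 4236, 6532 and 788 of 20612 with all libraries. The inhibitors that bind these kinases did not share a direction. CDKN2C, which encodes the INK4 protein p18, was at 3.79, 4.17 and 3.92 CPM with palbociclib and 0.770, 1.46 and 0.916 CPM in the combination, against 8.90, 9.86 and 9.63 CPM in control. It fell by log2 -1.26 with palbociclib and -3.16 with the combination (edgeR adjusted p = 0.0049 and 8.57e-06). CDKN2D, p19, fell by log2 -0.75 with the combination (edgeR adjusted p = 0.0249), a call lost on the FPKM scale and without control 2, control 3 or any 1 combination library (highest adjusted p over all alternatives 0.0882). The other INK4 genes, CDKN2A and CDKN2B, had palbociclib differences of -0.58 and -0.00 and combination differences of 0.10 and 0.25, and neither passed. In the INK4 list 1 of 4 fell with palbociclib, where 10.5% of all genes fell, and 2 of 4 with the combination, where 16.3% fell.

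Among the CIP/KIP genes, which encode broader CDK inhibitors that can also help D cyclins assemble with their kinases, CDKN1A, p21, was the one that passed in the combination. It was at 7.84, 7.15 and 9.13 CPM there and 5.80, 5.43 and 4.41 CPM with palbociclib, against 1.90, 2.60 and 4.45 CPM in control. CDKN1A rose by log2 1.42 with the combination (edgeR adjusted p = 0.00164), and its palbociclib difference of 0.80 fell short (edgeR adjusted p = 0.0509) and passed in 8 of 23 alternatives, DESeq2 included. CDKN1B, p27, had -0.38 with palbociclib and -0.31 with the combination, and CDKN1C, p57, -0.26 and 0.60, with no call. The CDKN1B difference with the combination was -0.22 without control 1 and palbociclib 3, and passed (edgeR adjusted p = 0.0407).

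The substrates are the pocket proteins. RBL1, p107, was at 28.1, 29.4 and 38.7 CPM with palbociclib and 24.0, 23.5 and 20.2 CPM in the combination, against 71.1, 58.2 and 64.3 CPM in control, with no overlap. RBL1 fell by log2 -1.01 and -1.52 (edgeR adjusted p = 0.000602 and 1.53e-05). RB1, the retinoblastoma gene, had log2 differences of -0.22 and -0.44 and RBL2, p130, 0.28 and 0.26, none of which passed. Without control 1 and palbociclib 3 all 4 passed, at -0.32 and -0.25 for RB1 (edgeR adjusted p = 0.0104 and 0.0151) and 0.25 and 0.35 for RBL2 (0.0203 and 0.00137). With all libraries 1 of 3 pocket genes fell in each comparison (10.5% and 16.3% of all genes).

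Downstream of the pocket proteins, 5 of 10 E2F and DP genes fell and 1 rose in each of the palbociclib and combination comparisons with control, with list medians of -0.42 and -0.46 against 0.01 and 0.03 over all genes. Over all genes, 10.5% fell and 10% rose with palbociclib, and 16.3% fell and 15.4% rose with the combination. E2F7 fell by log2 -1.45 with palbociclib and -3.53 with the combination (edgeR adjusted p = 1.44e-05 and 2.49e-08), and E2F2 by -1.42 and -2.86 (9.66e-05 and 3.48e-07). TFDP2, a DP partner subunit named here after its values were seen, was the one that rose, by 0.78 and 0.84 (edgeR adjusted p = 0.000202 and 4.76e-05). Of cyclin E and CDK2, 2 of 3 fell with palbociclib and 3 of 3 with the combination (medians -0.82 and -1.70), where 10.5% and 16.3% of all genes fell. CDK2 fell by -1.12 and -1.70 (edgeR adjusted p = 0.000261 and 5.14e-06), and the palbociclib call was lost on the TPM and FPKM scales (highest adjusted p 0.147). CCNE2 fell by -0.82 and -2.78 (0.0255 and 8.03e-06), and its palbociclib call was lost in 5 of 23 alternatives, among them those without control 1, palbociclib 1 or palbociclib 2 (highest adjusted p 0.135).

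All 6 of the S and G2 readout genes fell in both comparisons with control, with medians of -1.07 and -2.31, where 10.5% and 16.3% of all genes fell. MKI67, a proliferation antigen, was at 311, 358 and 279 CPM with palbociclib and 74.6, 41.6 and 74.1 CPM in the combination, against 1079, 964 and 1082 CPM in control. It fell by log2 -1.72 and -4.04 (edgeR adjusted p = 0.000126 and 2.15e-07), and PCNA, the replication clamp, by -1.06 and -1.89 (6.83e-05 and 4.08e-07). In the same libraries CCND1 was at its highest.

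**Figure D5:**
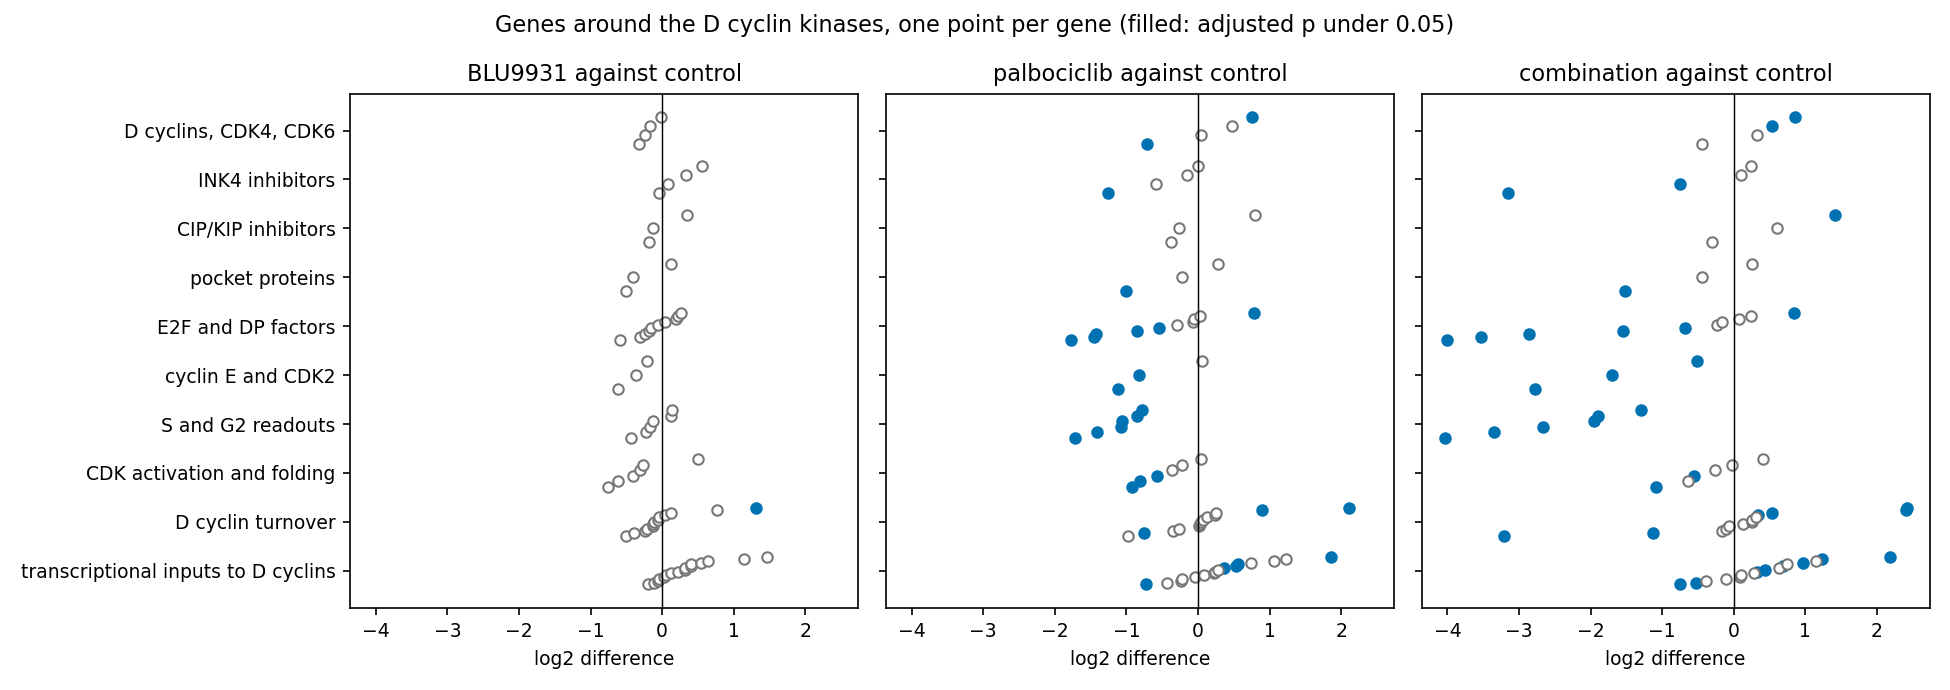
Log2 difference (edgeR) of every tested gene in the 10 lists around the D cyclin kinases, 1 point per gene, for each drug group against control; filled points have an adjusted p under 0.05. The S and G2 readouts lie at -1.72 to -0.78 with palbociclib and -4.04 to -1.30 with the combination, while CCND1 lies at 0.76 and 0.86.

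In the activation and folding list, which holds the CDK-activating kinase and the HSP90 and CDC37 chaperones that load CDK4 and CDK6, 3 of 6 fell with palbociclib and 2 of 6 with the combination (medians -0.47 and -0.41), where 10.5% and 16.3% of all genes fell. HSP90AB1 fell by log2 -0.58 and -0.55 (edgeR adjusted p = 0.00034 and 0.000205), and HSP90AA1 by -0.92 and -1.09 (0.012 and 0.003), where the first was lost with the palbociclib and control groups fitted alone (0.0613). Of 13 genes of D cyclin turnover, 2 rose and 1 fell with palbociclib (median 0.04), and 4 rose and 2 fell with the combination (median 0.25). All genes gave 10% up and 10.5% down with palbociclib and 15.4% up and 16.3% down with the combination, so the turnover list lay near these shares in both directions with palbociclib and for its falls with the combination.

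DYRK1B, a kinase reported to phosphorylate cyclin D1 for degradation, was at 54.2, 47.7 and 23.5 CPM with palbociclib and 47.0, 48.9 and 59.5 CPM in the combination, against 7.52, 10.6 and 10.99 CPM in control. DYRK1B rose by log2 2.11 and 2.42 (edgeR adjusted p = 0.000326 and 5.7e-05). CRYAB, a small heat shock protein reported as a cofactor of the FBXO4 ligase for cyclin D1, rose by 0.89 and 2.40 (edgeR adjusted p = 0.0123 and 8.09e-06), and the palbociclib call was lost without palbociclib 2 (0.058). SKP2, an F-box protein that also targets p27, fell by -0.76 and -1.12 (0.000872 and 2.47e-05). With all libraries, CRYAB was the only gene of the 10 lists that passed with BLU9931 alone, by log2 1.31 (edgeR adjusted p = 0.0381). That call was lost in 15 of 23 alternatives. Without control 1 and palbociclib 3, CRYAB passed again, and DYRK1B, RBL1 and STAT3 passed too. In that fit 553 of 21092 genes passed with BLU9931 against control, against 37 of 20612 with all libraries.

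Among 16 tested transcriptional inputs to D cyclin genes, 4 rose and 1 fell with palbociclib and 6 rose and 2 fell with the combination (medians 0.26 and 0.38). Over all genes, 10% rose and 10.5% fell with palbociclib, and 15.4% rose and 16.3% fell with the combination. STAT3, a cytokine-activated factor, rose by log2 0.53 and 0.98 (edgeR adjusted p = 0.0017 and 1.2e-05). CTNNB1, which encodes the WNT co-activator beta-catenin, rose by 0.36 and 0.44 (0.00487 and 0.000832), where the first was lost with its 2 groups fitted alone (0.0661). KLF5 fell by -0.72 and -0.52 (0.0018 and 0.00695).

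Adding BLU9931 to palbociclib lowered cell cycle genes further while the 4 tested D cyclin and kinase genes gave no call. In the combination against palbociclib, 5 of 6 S and G2 readouts, 3 of 3 cyclin E and CDK2 genes and 3 of 10 E2F and DP genes fell, where 2.91% of all genes fell. MKI67 fell by log2 -2.32 and CCNA2 by -1.94 (edgeR adjusted p = 5.14e-05 and 9.66e-05). CCNE2 fell by -1.96 (edgeR adjusted p = 0.000776) with its call kept in all 23 alternatives. CCNE1 fell by -0.57 (edgeR adjusted p = 0.0222, lost in 10 of 23 alternatives, highest 0.142), and the call of CDK2, named after its values were seen, at -0.58 (0.0399) was lost in 17 of 23 (highest 0.796). CDKN2C fell by -1.90 (0.00251), and STAT3 rose by 0.44 (0.0185, lost in 6 of 23 alternatives, among them leaving out any 1 combination library).

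The patterns most like each gene were sought among 10832 protein-coding genes by Pearson correlation of log2 CPM over the 12 libraries, as a description. These libraries share the 4 groups and the GC-linked deviation of control 1 and palbociclib 3. CCND1 was nearest to MAGEA11 (r = 0.986), MAGEA9B (r = 0.986) and VGLL4 (r = 0.985). MAGEA9B has a near-identical copy, so its counts are uncertain. VGLL4, a TEAD cofactor, averaged 341 CPM with palbociclib and 350 CPM in the combination, against 212 CPM with BLU9931 and 216 CPM in control.

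CDK6 was nearest to DHX40 (r = 0.988), PDE5A (r = 0.988) and SH3BGRL2 (r = 0.986). CCND3 was nearest to ARL6IP4 (r = 0.923), UQCRFS1 (r = 0.901) and ACBD6 (r = 0.893). CDK4 was nearest to SMG6 (r = 0.915), XXYLT1 (r = 0.914) and COPZ1 (r = 0.905). PDE5A, a phosphodiesterase, averaged 216 CPM in the combination and 192 CPM with palbociclib, against 98.9 CPM with BLU9931 and 131 CPM in control, and CDK6 had the same order of group means.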

How the data were processed

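Per the file headers, the authors deposited for each gene and library a count, a TPM and an FPKM value. Submitters' processing notes list Trimmomatic 0.36, HISAT2 2.0, bedtools 2.26.0 and StringTie 1.3.3b and a mouse genome build. The IDs are human: 57836 of 58174 are in GENCODE 29, so positions are on GRCh38. Which tool made the counts, the annotation release and whether strand was used are not given in the sources used here. The deposited TPM values summed to 999907 to 999944 per library.

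The deposited counts went into edgeR 4.0.16 (R 4.3.3). The filterByExpr function kept 20612 genes, and 1 quasi-likelihood model (TMM, robust, 8 residual degrees of freedom) was fitted to all 12 libraries with a term per group. Tests were two-sided with Benjamini-Hochberg adjustment over all genes tested and a threshold of 0.05. CPM are counts scaled by library total times TMM factor. Alternatives covered scaling, the filter, DESeq2 1.42.0, limma 3.58.1 on log2(TPM + 0.1), log2(TPM + 1) and log2(FPKM + 0.1), the groups compared alone, a replicate block, a GC term, and leaving out libraries. The edgeR steps were tested on simulated data. Motifs were counted in RefSeq promoter windows in Python 3.11.15. Total counts set the precision of each level, and limits from a count of 0 cover counting error only.

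The 5 genes and the gene lists were chosen with earlier results of these data known. Beyond the 5 genes, up to 2 genes with the smallest adjusted p were named per list and comparison, plus any INK4, CIP/KIP or pocket gene and the 3 genes with the most similar pattern, and genes named outside this rule are marked as such.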

Additional observations from a re-analysis of the deposited data

Results flagged for a closer look

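No D cyclin or kinase gene had a flagged result. Among the 64 tested genes of the lists around them, 8 had a combination effect that departed from the sum of the 2 single-drug log2 effects, by the edgeR interaction test over all genes (1.31% of genes fell there). Each was lower in the combination than that sum. On the log2 scale the interaction was -2.02 for E2F7, -2.46 for MKI67, -1.63 for E2F2 and -1.73 for CCNA2 (edgeR adjusted p = 9.25e-05, 0.000739, 0.00264 and 0.00442). It was -0.996 for CCNB1, -2.06 for E2F8, -1.99 for CDKN2C and -0.70 for PCNA (edgeR adjusted p = 0.00672, 0.00851, 0.0228 and 0.0456), where CCNB1, E2F8 and PCNA are named after their values were seen. Of 22 alternatives, 11 lost the call of CDKN2C, 12 that of PCNA and 3 that of CCNB1 (highest adjusted p 0.162, 0.127 and 0.134), and none lost the other 5. Without control 1 and palbociclib 3, all 8 of these genes passed again with the same sign, and 10 further list genes passed. In that fit the interaction called 2117 of 21092 genes, against 328 of 20612 with all libraries. For CCND1, CCND3, CDK4 and CDK6 the interaction was 0.27, 0.29, 0.60 and 0.29 with no call. Without control 1 and palbociclib 3 these values were 0.28, 0.21, 0.55 and 0.34, and only CDK6 passed (edgeR adjusted p = 0.0815, 0.759, 0.170 and 0.0404).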

How the results depend on the processing

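Over the 4 tested genes and all comparisons, 515 of the alternative values kept their side of the threshold, 22 lost a call, 11 gained one, and none of the called values changed sign. The number of D cyclin and kinase genes called with palbociclib against control was 2. It was 1 with limma on log2(TPM + 0.1), limma on log2(TPM + 1) or the 2 groups fitted alone, and 3 with the DESeq2 test or a GC term, both of which added CDK6. The count stayed at 2, with CDK6 in place of CCND3, under library totals, limma on log2(FPKM + 0.1), or without control 1 or palbociclib 1. The same exchange came without control 1 and palbociclib 3 together. Leaving out 1 library each gave 1 to 2 for palbociclib against control. It gave 1 to 2 for the combination against control (2 with all libraries) and 2 to 3 for the combination against BLU9931 (3). Without control 1 and palbociclib 3 together, the combination against palbociclib called 1 (CDK6) in place of 0 and the interaction 1 (CDK6) in place of 0. A GC term gave an interaction count of 1 (CDK4) and a count of 3 for the combination against control, adding CCND3.

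Deviations of same-numbered libraries from their group means had correlations of -0.364 to 0.168 over 18 pairs. The lowest was between palbociclib 1 and control 1, a library with the GC-linked deviation. The labels do not say what equal numbers mark, and these correlations cannot decide whether a culture or day was shared. A replicate block left the member counts at 2, 2 and 3 for palbociclib against control, the combination against control and the combination against BLU9931, and 0 elsewhere.

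Counts over all genes moved more. BLU9931 against control called 37 genes, 1 to 745 under the alternatives (590 with DESeq2, 2 with the block). Palbociclib against control called 4236 (1839 to 7126), the combination against control 6532 (5105 to 8916), against BLU9931 5572 (4120 to 8685) and against palbociclib 788 (297 to 2278), and the interaction 328 (142 to 2117). With library totals the median of all genes moved to at most 0.11 from 0.03. Depth limits CCND2, at no more than 14 counts per library.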
